A study of Mus musculus with 8 samples.

Results

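The 10 genes described here encode ligand-sensing nuclear receptors and their coactivators: the xenobiotic receptors PXR (Nr1i2) and CAR (Nr1i3), the vitamin D receptor (Vdr), the peroxisome proliferator-activated receptors (Ppara, Ppard, Pparg), the estrogen-related receptors (Esrra, Esrrg), and the coactivators PGC-1alpha (Ppargc1a) and PGC-1beta (Ppargc1b). They were taken by gene symbol, through the transcript accession of each array probe, and make up 10 of the 20659 genes with a named probe and 10 of the 14476 genes tested. All of them had a probe: 14 of their 15 probes passed the filter on dim signals, and all 10 genes were tested. Tubules from the kidney cortex of male mice, aged 6 weeks and labelled as strain C57/BJ, were grown to confluence as primary proximal tubule cell cultures. The cells then spent 24 h in medium without serum with either DMSO, the vehicle (4 samples), or 1 uM GW4064 (4 samples). GW4064 is a laboratory agonist of the bile acid receptor FXR, and the comparison asked what it changed in these cells. The plated pellet was described as mostly, not wholly, tubules, and the labels leave unsaid whether replicates are different animals, different cultures or repeats of one, so a p-value here weighs a difference against the spread of these samples alone, possibly a technical spread.

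Nuclear receptors of these families sit on short DNA repeats, mostly as partners of the retinoid X receptors, and switch on transcription when a lipid-soluble ligand makes them recruit coactivators. PXR and CAR are known for inducing drug-metabolizing enzymes and transporters, chiefly in liver and gut, and the vitamin D receptor for calcium handling and for inducing the enzyme that degrades its own ligand, for which the kidney tubule is a main site. PPARs govern fatty acid oxidation and lipid storage, while the estrogen-related receptors, which need no known natural ligand, act with PGC-1 coactivators on mitochondrial genes, of which proximal tubule cells hold many.

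The sequences before the start of the 4 genes that changed are shown because the receptors' binding unit is short enough to be read in them. They come from RefSeq on GRCm38.p6, are the 250 bases upstream of the transcript start, and are read 5′ to 3′ on the gene's strand, with each copy of the 6-base receptor unit AGGTCA in capitals. They are Nr1i2 (chr16:38294825-38295074, minus strand), Vdr (chr15:97908297-97908546, minus strand), Ppargc1a (chr5:51567726-51567975, minus strand) and 2 of the 3 listed Pparg starts (chr6:115360894-115361143 and chr6:115362099-115362348, plus strand).
Nr1i2: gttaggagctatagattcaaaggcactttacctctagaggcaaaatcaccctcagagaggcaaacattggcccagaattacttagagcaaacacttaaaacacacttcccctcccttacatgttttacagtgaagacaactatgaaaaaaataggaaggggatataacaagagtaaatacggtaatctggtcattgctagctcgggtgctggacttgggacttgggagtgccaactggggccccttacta
Vdr: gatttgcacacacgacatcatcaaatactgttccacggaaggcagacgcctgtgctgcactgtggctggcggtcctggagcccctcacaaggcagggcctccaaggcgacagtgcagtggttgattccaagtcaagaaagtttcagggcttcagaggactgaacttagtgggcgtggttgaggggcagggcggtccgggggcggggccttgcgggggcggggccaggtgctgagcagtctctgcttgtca
Ppargc1a: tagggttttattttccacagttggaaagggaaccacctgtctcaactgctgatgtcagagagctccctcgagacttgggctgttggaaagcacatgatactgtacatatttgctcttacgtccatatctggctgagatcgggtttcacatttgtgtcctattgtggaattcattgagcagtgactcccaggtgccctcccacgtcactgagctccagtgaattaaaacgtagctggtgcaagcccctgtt
Pparg, first start: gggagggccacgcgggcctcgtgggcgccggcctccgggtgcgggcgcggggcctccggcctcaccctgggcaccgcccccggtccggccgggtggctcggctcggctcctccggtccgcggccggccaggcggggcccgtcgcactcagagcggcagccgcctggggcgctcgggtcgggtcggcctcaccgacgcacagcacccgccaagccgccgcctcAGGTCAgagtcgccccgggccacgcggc
Pparg, next start: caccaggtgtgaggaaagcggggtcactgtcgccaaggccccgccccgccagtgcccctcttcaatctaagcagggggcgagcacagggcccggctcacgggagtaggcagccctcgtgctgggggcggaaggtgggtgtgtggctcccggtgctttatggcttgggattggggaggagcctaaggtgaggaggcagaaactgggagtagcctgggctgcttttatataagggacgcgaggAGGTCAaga
In all, 9 of the 10 genes matched an entry, with 14 windows of 300 bases (250 before and 50 after a start). On either strand, AGGTCA was present in 2 of these 14 windows, both of Pparg, at 28 to 23 and at 9 to 4 bases before the start, and in 5340 of all 32851 windows (16.3%). The inverted repeat AGGTCANTGACCT (0.00913% of all windows), the direct repeats AGGTCANAGGTCA (0.0396%), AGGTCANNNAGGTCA (0.00609%), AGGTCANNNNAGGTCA (0.0152%) and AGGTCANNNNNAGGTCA (0.00913%), and the extended unit TCAAGGTCA (0.423%) were searched on both strands. Each contains AGGTCA, so none could occur outside the 2 windows that held it, and their letters were in none of the 14 windows. A match describes the letters only, and a missing match speaks only for these exact letters in this stretch. The 4 genes differed in base composition upstream of the start: G and C made up 44.0% for Nr1i2, with 2 CpG pairs, 48.0% for Ppargc1a, with 5, and 61.2% for Vdr, with 11. The first Pparg start lay in a CpG-dense stretch, with 82.4% G and C and 38 CpG pairs, the next had 63.6% and 12, and the third, at chr6:115421816-115422065 and not shown, had 40.8% and 2. Over all windows the medians were 52.4% and 6.

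Signals are on a log2 scale with each array's 75th percentile subtracted, so 0 marks that percentile, and since probes differ in brightness, levels are compared only within a gene. The share of probes well above background was 61.4% to 65.7% across arrays. The 8 arrays lay on 2 slides, each with 2 DMSO samples and 2 GW4064 samples (replicates 1 and 2 on slide 1, replicates 3 and 4 on slide 2). DMSO samples held the first 2 places on both slides, so treatment and place on the slide cannot be told apart. As a check of the treatment, Slc51a, a bile acid exporter subunit and FXR target, ranged from -3.75 to -2.98 with DMSO and from 3.27 to 3.67 with GW4064. Nr1h4, which encodes FXR itself, fell by 0.45 ± 0.05 (SE, adjusted p = 3.02e-04 in limma).

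Of the 10 genes, 2 rose with GW4064 (Nr1i2 and Vdr), 2 fell (Pparg and Ppargc1a) and 6 did not pass an adjusted p of 0.05. These 4 calls of 10 stand beside 20.8% of all 14476 genes called (11.8% higher and 8.95% lower). The same 4 genes were the ones whose groups did not overlap, as was the case for 26.2% of all genes. The median log2 fold change was 0.05 over the 10 genes and 0.015 over all genes tested. Nr1i2 was the only one of the 10 to change at least 2-fold and pass, which 1.3% of all genes did.

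**Figure D1:**
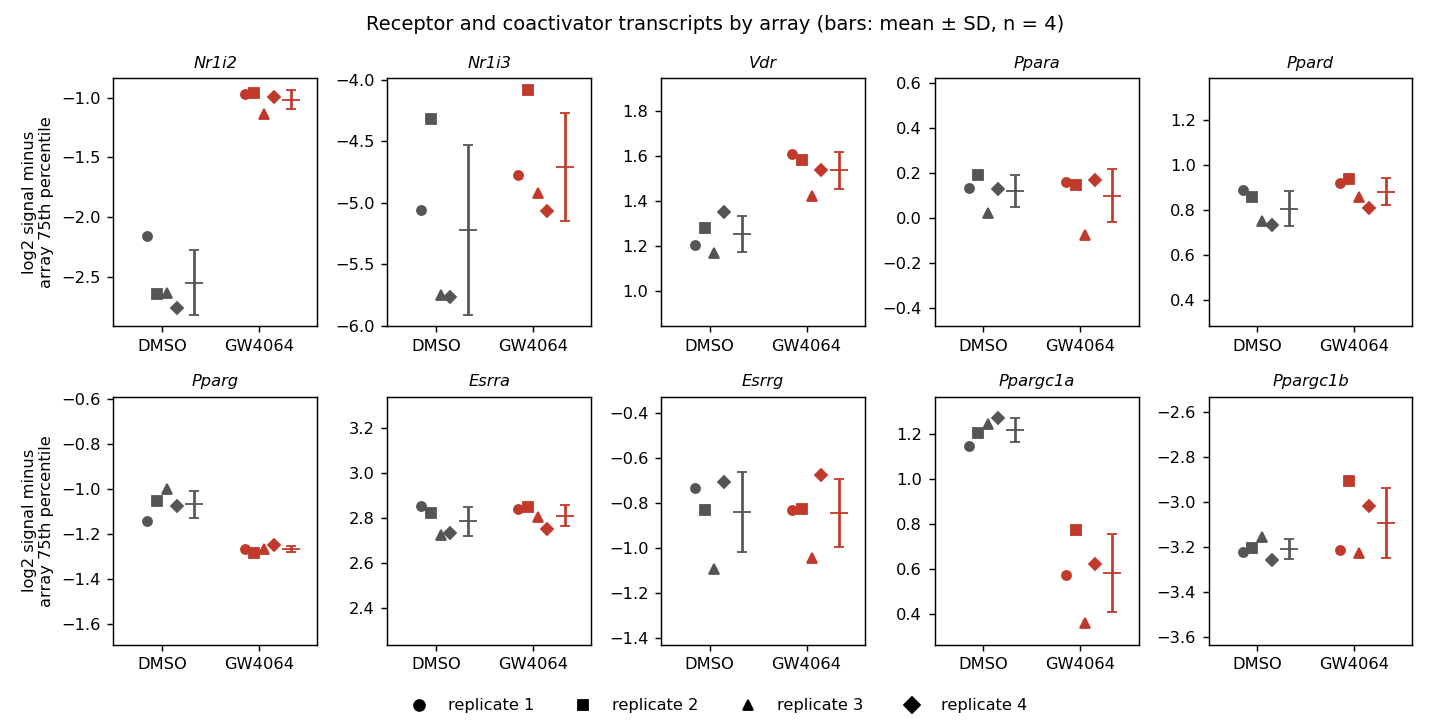
Log2 signal minus the array's 75th percentile (vertical axis, with its own range in each panel) of the 10 genes on each of the 4 DMSO and 4 GW4064 arrays; symbols mark the replicate and bars the mean ± SD. The groups are apart for Nr1i2 and Vdr, higher with GW4064, and for Pparg and Ppargc1a, lower with GW4064, and overlap for the other 6 genes.

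Nr1i2 encodes PXR, the receptor for many drugs and for some bile acids. Its signal was -2.16, -2.64, -2.64 and -2.76 in DMSO replicates 1 to 4 and -0.97, -0.96, -1.14 and -0.99 in GW4064 replicates 1 to 4. Every GW4064 array lay above every DMSO array, and DMSO replicate 1 was the highest of its group. The rise was 2.89-fold (log2 fold change 1.53 ± 0.12 SE, 95% interval 1.25 to 1.82, adjusted p = 9.73e-05 in limma, n = 4 per group). It was 1.43 on slide 1 and 1.63 on slide 2, and its size exceeded that of 99.4% of the genes tested. In RNA from a whole culture, fewer cells of a type and less RNA per cell cannot be told apart, here or in any result that follows.

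Nr1i3 encodes CAR, the other xenobiotic receptor, which resides in the cytoplasm of untreated liver cells. Its tested probe was dim: with DMSO it exceeded background clearly on 2 of 4 arrays, and with GW4064 on 4 of 4. The signals were -5.05, -4.32, -5.75 and -5.76 with DMSO and -4.77, -4.08, -4.92 and -5.07 with GW4064. The DMSO arrays spread widely and the groups overlapped. The difference was 0.51 ± 0.35 (SE, 95% interval -0.29 to 1.31, adjusted p = 0.342), 0.26 on slide 1 and 0.76 on slide 2. Within slide 2 alone, 2 arrays per group, it passed (adjusted p = 0.0369). The DMSO values there lay near the lowest signals well above background on those arrays (-6.30 and -6.31). The probe also met the filter mainly through the GW4064 arrays, so no rise is read from that fit. A second probe was well above background on 1 of 4 GW4064 arrays and 0 of 4 with DMSO, so it was not tested and no fold is given.

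Vdr encodes the receptor of active vitamin D. Its signal was 1.20, 1.28, 1.17 and 1.35 with DMSO and 1.61, 1.58, 1.42 and 1.54 with GW4064. The lowest GW4064 array, replicate 3, lay just above the highest DMSO array, replicate 4. Vdr rose 1.22-fold (log2 fold change 0.28 ± 0.06 SE, 95% interval 0.15 to 0.42, adjusted p = 0.0101), with 0.35 on slide 1 and 0.22 on slide 2.

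Among the PPAR genes, Ppara, the receptor that drives fatty acid oxidation in liver and kidney, had signals of 0.13, 0.19, 0.02 and 0.13 with DMSO and 0.16, 0.14, -0.08 and 0.17 with GW4064. The groups lay on top of each other, with replicate 3 lowest in both. The difference was -0.02 ± 0.07 (SE, 95% interval -0.17 to 0.13, adjusted p = 0.854), and its other 2 probes gave 0.09 ± 0.07 and 0.01 ± 0.09. Ppard, the widely expressed PPAR, ranged from 0.73 to 0.89 with DMSO and from 0.81 to 0.94 with GW4064, with overlap. Its difference was 0.07 ± 0.05 (95% interval -0.04 to 0.19, adjusted p = 0.347).

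Pparg, the PPAR best known as the master regulator of fat cells, was the one of the 3 that passed the test. Its probe was spotted 10 times on each array. The signal was -1.15, -1.05, -1.001 and -1.08 with DMSO and -1.27, -1.28, -1.27 and -1.25 with GW4064. The 4 GW4064 arrays lay within a narrow band below all 4 DMSO arrays. Pparg fell by 0.20 ± 0.04 on the log2 scale (SE, 1.15-fold lower, 95% interval -0.29 to -0.11, adjusted p = 0.0095), by 0.18 on slide 1 and by 0.22 on slide 2. Of 8 fat cell markers on the array, 5 were never well above background, the defining genes Adipoq, Plin1 and Lep among them. The 3 tested did not pass, Fabp4 at 0.07 and Retn at 0.05 among them, and the list's summed signal ranged from 0.562 to 0.63 with DMSO and from 0.567 to 0.687 with GW4064, where 1 is an array's 75th percentile.

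Neither Esrra nor Esrrg passed the test. Esrra, the receptor most closely tied to mitochondrial gene expression, ranged from 2.72 to 2.85 with DMSO and from 2.75 to 2.85 with GW4064, and the difference was 0.03 ± 0.05 (SE, 95% interval -0.08 to 0.13, adjusted p = 0.72). Esrrg, its relative in tissues with high energy use, ranged from -1.09 to -0.71 and from -1.05 to -0.68. DMSO replicate 3 and GW4064 replicate 3 were the lowest of their groups. The difference was -0.00 ± 0.10 (95% interval -0.24 to 0.23, adjusted p = 0.985), and a second probe gave 0.04 ± 0.13. Both intervals lie inside a 2-fold change, and that of Esrrg is the wider.

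Of the coactivator genes, Ppargc1a encodes PGC-1alpha, which docks on ERR and PPAR receptors and is known as a main driver of mitochondrial biogenesis. Its signal was 1.15, 1.21, 1.24 and 1.27 with DMSO and 0.57, 0.78, 0.36 and 0.62 with GW4064. The DMSO arrays were tight, the GW4064 arrays spread more, with replicate 3 lowest, and the groups were far apart. Ppargc1a fell by 0.63 ± 0.08 (SE, 1.55-fold lower, 95% interval -0.82 to -0.45, adjusted p = 0.00118), by 0.50 on slide 1 and by 0.77 on slide 2. A second, dimmer probe also fell, by 0.43 ± 0.07 (adjusted p = 0.00568 over all probes), with DMSO arrays from -2.81 to -2.60 and GW4064 arrays from -3.29 to -3.01. Ppargc1b, the related coactivator, ranged from -3.26 to -3.15 with DMSO and from -3.23 to -2.91 with GW4064. The groups overlapped and the difference was 0.12 ± 0.08 (95% interval -0.05 to 0.29, adjusted p = 0.305).

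**Figure D2:**
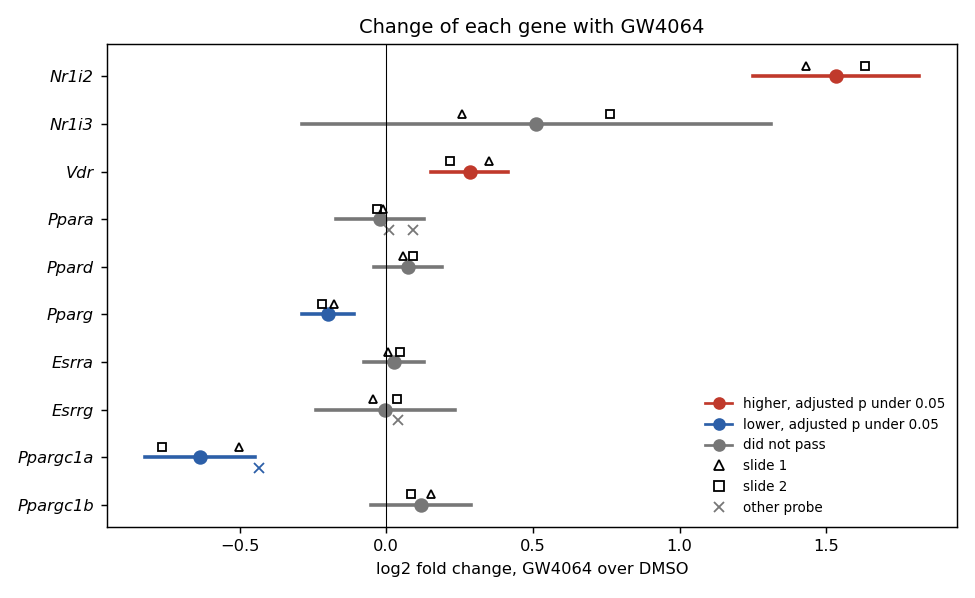
Log2 fold change of GW4064 over DMSO (horizontal axis) for each of the 10 genes, with dots for the estimate, lines for its 95% interval, open symbols for the value within each slide and crosses for other probes that passed the filter. Nr1i2 at 1.53 stands farthest from 0, Ppargc1a at -0.63 is next among those that passed, and the interval of Nr1i3 is the widest, from -0.29 to 1.31.

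The 4 calls held when any 1 of the 8 arrays was left out, with values from 1.46 to 1.67 for Nr1i2, 0.26 to 0.32 for Vdr, -0.23 to -0.18 for Pparg and -0.70 to -0.56 for Ppargc1a. They were lost under a background correction with normexp, in which 1 spot region of DMSO replicate 3 had a local background of 53526 against that array's median of 30: Nr1i2 was then 0.86 (adjusted p = 0.579), Vdr 0.34 (0.473), Pparg -0.27 (0.674) and Ppargc1a -0.54 (0.167). With that background capped, a setting chosen after seeing the data, Pparg alone of the 4 missed the threshold (-0.15, adjusted p = 0.0518). With a single slide, Nr1i2 passed on each, Vdr on slide 1 only (adjusted p = 0.352 on slide 2), and Pparg and Ppargc1a on neither (Pparg 0.162 and 0.233, Ppargc1a 0.0563 and 0.0592).

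The receptors act with partners, and 17 of 18 listed partners and cofactors could be tested. By the brightest probe of each, 1 rose and 1 fell (11.8% called, beside 20.8% of all genes), with a median log2 fold change of 0.01. The gene that fell was Esrrb, the third estrogen-related receptor. Its signal was -1.79, -1.74, -2.10 and -1.85 with DMSO and -2.36, -2.36, -2.43 and -2.44 with GW4064. The groups did not overlap, although DMSO replicate 3 came nearer the GW4064 arrays than the other DMSO samples did. Esrrb fell by 0.53 ± 0.08 (SE, 1.44-fold lower, adjusted p = 0.00216), while Esrra and Esrrg gave no call; the difference between them was not tested. Nrip1, a corepressor of ERR and PPAR receptors, rose by 0.17 ± 0.04 (adjusted p = 0.0223), a call lost without DMSO replicate 1 or 2 or GW4064 replicate 1 or 2 (adjusted p from 0.0504 to 0.0673). Ncoa3, a steroid receptor coactivator, was at -0.20 ± 0.06 (adjusted p = 0.0529), and Lpin1, which works with PGC-1alpha, at -0.16 ± 0.06 (adjusted p = 0.0814). A dimmer Ncoa3 probe passed as lower (-0.16, adjusted p = 0.0316 over all probes). So did a dimmer probe of Ncoa1, chosen after its values were seen (-0.21, adjusted p = 0.0072 over all probes). The tested Ncoa1 probe (-0.04) and another of its probes (-0.08) did not pass, nor did the dimmer probes of other genes in the list. Rxra, the retinoid X receptor and the usual partner of PXR, VDR and the PPARs, was at 0.17 ± 0.08 (adjusted p = 0.173, chosen after its values were seen). With DMSO replicate 3 or GW4064 replicate 1 left out, up to 3 of the list passed as lower, and the higher count ranged from 0 to 2 over the 8 arrays left out in turn, changing without DMSO replicates 1, 2 and 3 and GW4064 replicates 1 and 2.

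Of 27 genes listed as targets of PXR and CAR, 24 were on the array and 16 could be tested. With GW4064, 6 rose and 0 fell (37.5% called, beside 20.8% of all genes), and the median log2 fold change was 0.13. Ces2c, a carboxylesterase that hydrolyses esters of drugs and lipids, was at -1.32, -1.06, -1.28 and -1.30 with DMSO and at 0.20, 0.20, 0.24 and 0.43 with GW4064. All 4 GW4064 arrays lay well above the DMSO arrays. Ces2c rose 2.84-fold (1.51 ± 0.07 SE, adjusted p = 7.05e-06), and its other 2 probes gave 1.39 and 1.44. Akr1b7, an aldo-keto reductase, ranged from -3.91 to -3.52 with DMSO and from -2.71 to -2.41 with GW4064 and rose 2.31-fold (1.21 ± 0.10, adjusted p = 1.09e-04). Gstm1, a glutathione transferase, rose by 0.84 ± 0.08 (adjusted p = 1.97e-04), and Abcc2, an apical exporter of conjugated drugs that several nuclear receptors regulate, by 0.60 ± 0.07 (adjusted p = 4.87e-04). The other genes that rose, named for having passed, were Gadd45b, a stress gene, by 0.31 ± 0.05, and Alas1, which makes the first committed step of heme synthesis, by 0.21 ± 0.04.

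The cytochromes by which PXR and CAR activity is usually read gave no call or could not be tested. Cyp3a11, the classical mouse PXR target in liver, ranged from -5.74 to -5.43 with DMSO and from -5.93 to -5.24 with GW4064. The groups overlapped fully, and the difference was 0.00 ± 0.14 (adjusted p = 0.987). Cyp3a13, a relative, was at -0.38 ± 0.15 (adjusted p = 0.119). Both genes were well above background on every array. Their signals were not far above the lowest such values there (-6.79 to -6.01), which limits what these differences show. Cyp2b10, the classical CAR target, was never well above background on any of the 8 arrays, nor were Cyp2c55, Cyp3a25, Ces2a, Slco1a4 and Sult2a1. These cytochromes were chosen after their values were seen. With DMSO replicate 4 left out, 1 gene of the list passed as lower.

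Of 19 genes of vitamin D action and metabolism, 16 could be tested: 2 rose and 2 fell, and the median log2 fold change was 0.05. The 25% called is near the 20.8% of all genes. Cyp24a1 encodes the hydroxylase that degrades active vitamin D and is the classical target of its receptor. Its signal was 0.36, 0.35, 0.15 and 0.36 with DMSO and 2.15, 2.18, 1.96 and 2.28 with GW4064. The groups were far apart and replicate 3 was lowest in both. Cyp24a1 rose 3.57-fold (1.83 ± 0.08 SE, adjusted p = 3.31e-06), by 1.81 on slide 1 and 1.86 on slide 2. It held under normexp with offset 50, at 1.79 (adjusted p = 7.19e-04). S100g, which encodes the small calcium-binding protein calbindin-D9k, rose by 0.25 ± 0.05 (adjusted p = 0.00745).

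The genes that fell were Txnip and Gc. Txnip, which encodes a thioredoxin-binding protein, fell by 0.20 ± 0.04 (SE, adjusted p = 0.00946). Gc, the vitamin D binding protein, fell by 0.33 ± 0.08 (adjusted p = 0.0188), a call lost without DMSO replicate 4, GW4064 replicate 1 or GW4064 replicate 2 (adjusted p from 0.0508 to 0.0539). Cyp27b1, which makes active vitamin D in the proximal tubule, was at 0.41 ± 0.13 (adjusted p = 0.0664), with DMSO arrays from -1.92 to -1.47 and GW4064 arrays from -1.67 to -1.15. Trpv5 and Trpv6, calcium channels of the distal nephron and gut, were at -0.31 ± 0.14 (adjusted p = 0.171) and -0.17 ± 0.12 (adjusted p = 0.346). Cyp27b1, Trpv5 and Trpv6 were chosen after their values were seen. Calb1, Slc34a3 and Tnfsf11 were never well above background.

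**Figure D3:**
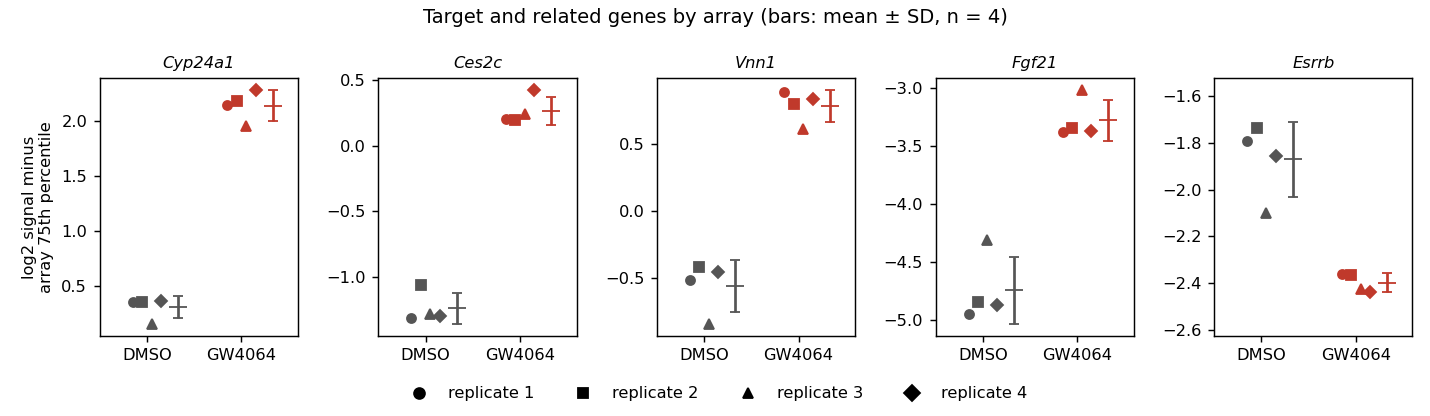
Log2 signal minus the array's 75th percentile (vertical axis, with its own range in each panel) of Cyp24a1, Ces2c, Vnn1, Fgf21 and Esrrb on the 4 DMSO and 4 GW4064 arrays; symbols mark the replicate and bars the mean ± SD. The first 4 lie higher on every GW4064 array, by 1.83, 1.51, 1.34 and 1.46, and Esrrb lies lower on every GW4064 array, by -0.53.

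Of 40 PPAR target genes, 35 could be tested: 10 rose and 2 fell (34.3% called, beside 20.8% of all genes), and the median log2 fold change was -0.00, against 0.015 over all genes. Vnn1, the pantetheinase vanin-1, was at -0.52, -0.42, -0.84 and -0.46 with DMSO and at 0.88, 0.80, 0.61 and 0.84 with GW4064. The groups did not overlap and replicate 3 was lowest in both. Vnn1 rose 2.53-fold (1.34 ± 0.10 SE, adjusted p = 7.28e-05). Fgf21, a fasting hormone that PPARalpha induces in liver, was at -4.95, -4.84, -4.31 and -4.87 with DMSO and at -3.38, -3.35, -3.02 and -3.37 with GW4064. Replicate 3 was the highest in both groups. Fgf21 rose 2.76-fold (1.46 ± 0.15, adjusted p = 3.12e-04), but under normexp with offset 50 its value was 0.27 (adjusted p = 0.813), and with the background capped 0.89 (adjusted p = 1.63e-04).

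Smaller rises were those of Acot1, an acyl-CoA thioesterase (0.41 ± 0.07 SE, adjusted p = 0.00354), and Pex11a, which divides peroxisomes (0.31 ± 0.05, adjusted p = 0.00438). The other 6 genes that rose were Plin2, Acaa1b, Acaa1a, Ehhadh, Fads2 and Pdk4, and those that fell were Acsl1 and Hadhb. Cpt1a, the mitochondrial gatekeeper for long-chain fatty acids, was at 0.01 ± 0.05 (adjusted p = 0.884). Angptl4, a lipoprotein lipase inhibitor that all 3 PPARs induce, was at -0.16 ± 0.07 (adjusted p = 0.127). These genes were chosen after their values were seen. Leaving out single arrays gave 7 to 9 higher and 0 to 3 lower genes. The lower count moved without DMSO replicates 1, 2 and 4 and GW4064 replicates 1, 2 and 3, and Pdk4 (adjusted p up to 0.105) and Hadhb (up to 0.0993) each passed in 1 of the 8 such fits, Ehhadh (up to 0.0627) and Acsl1 (up to 0.0707) in 4 and Fads2 (up to 0.0659) in 3.

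**Figure D4:**
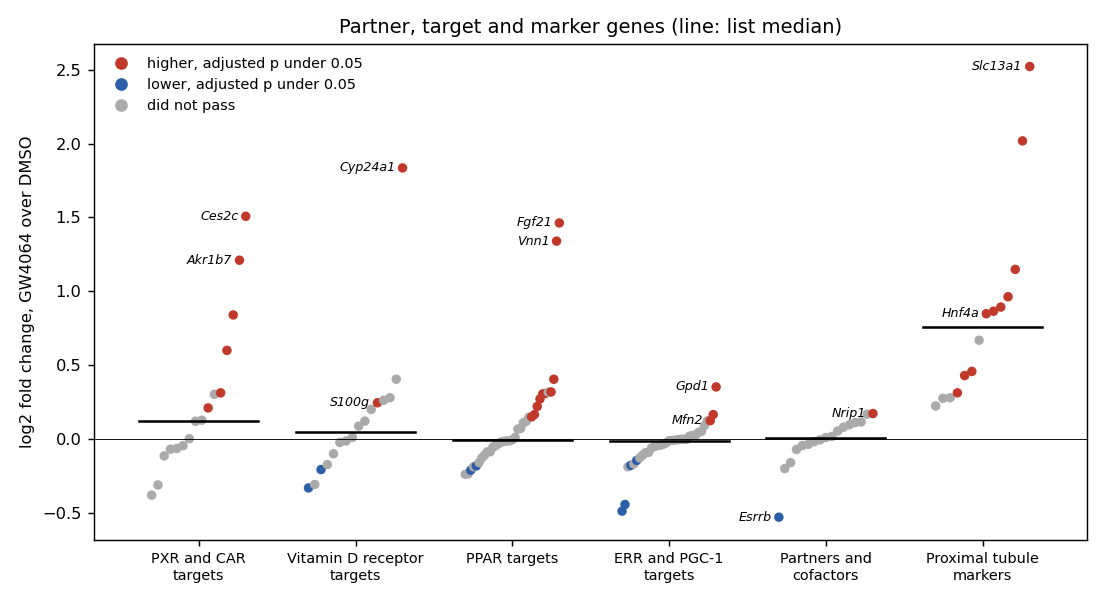
Log2 fold change of GW4064 over DMSO (vertical axis) for every tested gene of 6 lists, ordered by value within each list; red dots rose and blue dots fell at an adjusted p under 0.05, grey dots did not pass, and lines mark list medians. The medians are 0.13 for PXR and CAR targets, 0.05 for vitamin D genes, near 0 for PPAR targets, ERR and PGC-1 targets and cofactors, and 0.76 for proximal tubule markers.

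All 33 listed mitochondrial targets of the estrogen-related receptors and PGC-1 could be tested. With GW4064, 3 rose and 4 fell (21.2% called, a share near the 20.8% of all genes). The median log2 fold change was -0.01, against 0.015 over all genes, with 11 genes above 0 and 22 below. Gpd1, the cytosolic dehydrogenase of the glycerol phosphate shuttle, rose by 0.35 ± 0.07 (SE, adjusted p = 0.0123). It was the only one of the 7 to pass in all 8 fits that left out 1 array. Mfn2, which fuses mitochondria, rose by 0.13 ± 0.03 and passed in 3 of the 8, failing without DMSO replicates 2, 3 and 4 and GW4064 replicates 1 and 2 (adjusted p from 0.0528 to 0.0737). Ckmt1, the mitochondrial creatine kinase, fell by 0.44 ± 0.11 and passed in 5, failing without DMSO replicate 2, GW4064 replicate 1 or GW4064 replicate 3 (0.067 to 0.0708). Nampt, which makes NAD, fell by 0.49 ± 0.13 with overlapping groups and passed in 2, those without DMSO replicate 3 and without GW4064 replicate 4. The others were Pdk4, which rose, and Sirt3 and Cycs, which fell, and these passed in 1, 0 and 1 of the 8 (adjusted p up to 0.105, 0.103 and 0.12). Counts over the 8 fits ranged from 1 to 3 higher, moving without DMSO replicates 2, 3 and 4 and GW4064 replicates 1 and 2, and from 0 to 5 lower, moving without DMSO replicates 1, 2 and 4 and GW4064 replicates 1, 2 and 3. Tfam, the mitochondrial transcription factor, at 0.03 ± 0.05, and Sdhb, a subunit of succinate dehydrogenase, at 0.02 ± 0.05, were chosen after their values were seen and did not pass.

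The genes whose signal followed Nr1i2 most closely over the 8 arrays, by Pearson's r on the log2 scale, were Wdtc1 (0.996), Teddm1a (0.996), Apoe (0.993), Flacc1 (0.993) and Neurl4 (0.992). Their log2 fold changes were 0.45, 1.06, 0.84, 1.42 and 0.36. The 8 arrays fall into the 2 treatment groups, so r over all of them also holds the difference between the groups, and it is given as a description.

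Markers of cell types moved with treatment too, and their part in the results above was not tested. Their counts stand beside 11.8% of all genes called higher and 8.95% called lower. Of 15 proximal tubule markers, all well above background on at least 1 array, 14 were tested, and 10 rose and 0 fell (median 0.76). Slc13a1, a sulfate transporter of this segment, rose by 2.52 ± 0.07 and Hnf4a, a transcription factor that marks it, by 0.85 ± 0.05, and the list's summed signal lay between 79.5 and 99.2 with DMSO and between 121 and 146 with GW4064. Of 12 markers of other segments and podocytes, 8 were tested and 2 fell (Umod by 0.71 and Slc12a3 by 0.77), with sums of 8.12 to 10.1 and 8.39 to 10.0. For both genes the groups overlapped. Slc12a3 was well above background on 2 of 4 GW4064 arrays. Its GW4064 replicates 3 and 4 (-6.56 and -6.57) lay below the lowest signals well above background there (-6.31 and -6.22), so the size of its fall is uncertain. Atp6v1b1 and Calb1 were never well above background. Slc12a3 passed in only 2 of the 8 fits that left out 1 array, those without DMSO replicate 3 and without GW4064 replicate 2. Markers of leukocytes rose in 4 of 10 tested (Csf1r by 0.75 and Cd14 by 0.40), with sums of 17.2 to 18.7 and 21.97 to 24.8. Of the 10, 9 lay above 0 and 1 below. The latter was Ptprc, chosen after its values were seen, at -0.90 ± 0.54 (adjusted p = 0.279 in limma). Its DMSO replicate 4 was at -1.53 and its other DMSO arrays from -4.10 to -4.01. Without DMSO replicate 4, 1 gene of the list passed as lower. Endothelial markers rose in 4 of 9 (Esam by 0.99 and Plvap by 0.36), with sums of 5.34 to 6.27 and 6.16 to 6.94, and Tek never above background. Fibroblast and pericyte markers rose in 3 of 9 (Tagln by 0.53 and Pdgfrb by 0.33), with sums of 57.7 to 73.7 and 79.0 to 95.7, and Lum never above background.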

How the data were processed

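RNA from 8 samples (4 DMSO, 4 GW4064) was measured on one-colour Agilent arrays. The deposited spot intensity already had the background taken off by the scanner software (Feature Extraction, version 10.7.3.1), per the file headers. Agilent Feature Extraction 10.7, together with limma, is also what the submitters' processing notes list. A log2 table deposited by the authors, with scale and centring unstated and a median of 6.598 in every column, served as an alternative only.

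Control spots (1377 of 44397) and spots marked as outliers (98 to 174 per array) were left out. Spots of a probe were averaged on the log2 scale and the array's 75th percentile (1626 ± 187 with DMSO, 1412 ± 207 with GW4064, SD, n = 4) was subtracted. A probe was kept if well above background (in at least 0.5 of its spots) on at least 4 of 8 arrays, with no array having all its spots marked, which left 24723 of 39429 probes. Accessions were named through the RefSeq table of GRCm38.p6 (27234 probes). The file headers name mm9, so coordinates are given only for RefSeq promoter sequences. The brightest kept probe stood for a gene. The comparison ran in limma 3.58.1 (R 4.3.3) over all 14476 genes (lmFit, eBayes, Benjamini-Hochberg, threshold 0.05), with no covariate. The fit was also run on simulated data with independent noise for each gene and no slide or replicate structure. It recovered 79 of 100 log2 shifts of 0.5 and 95 of 100 of 1, and called 4 unchanged genes. Smaller shifts, such as those of Pparg and Vdr, were not simulated.

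The 10 genes and all gene lists were chosen with earlier results of these data known. Genes were named by rule: the 10, up to 4 of each list (2 of marker lists) with the smallest p, Nr1h4 and Slc51a, and the 5 most like the gene among the 10 with the smallest p. Alternatives covered normexp, quantile and median scaling, filters, probes, slide and replicate blocks, single slides, the deposited table and leaving out each array. The number of arrays limits the precision. The values of 1 list gene are not reported here.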

Additional observations from a re-analysis of the deposited data

Results flagged for a closer look

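In groups of 4 arrays, a sample is listed here when its gap to the nearest other sample exceeded Dixon's 95% critical value, as a share of the group's range. Of 98 groups examined, 11 did (11.2%), where chance alone gives about 5% at that level, and genes on the same arrays are not independent. Among the receptors, Nr1i2 in GW4064 replicate 3 was low at -1.14, with the others from -0.99 to -0.96, and without that array the rise was 1.57. Ppara in GW4064 replicate 3 was low at -0.077, with the others from 0.14 to 0.17.

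The other 9 concerned named genes of the lists. Replicate 3 was high for Fgf21 with DMSO (-4.31) and with GW4064 (-3.02), high for Tagln with DMSO (5.11) and with GW4064 (5.64), and low for Cyp24a1 with DMSO (0.15). Ces2c was high in DMSO replicate 2 (-1.06), Cd14 in DMSO replicate 1 (2.70), Apoe in DMSO replicate 1 (3.49) and Pdgfrb in GW4064 replicate 4 (-1.29). Without DMSO replicate 3 the rise of Cyp24a1 was 1.78 and that of Fgf21 1.61.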

How the results depend on the processing

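All 4 calls among the receptors and coactivators (Nr1i2 and Vdr higher, Pparg and Ppargc1a lower) held under 19 of the 23 alternatives, which include quantile and median scaling, the filters, probes in place of genes, the deposited table, both blocks and each of the 8 arrays left out. Under normexp with offset 50, 120 of all genes passed (80 higher, 40 lower) and 0 of the 10 genes (0 higher, 0 lower). Nr1i2 was then 0.86, Vdr 0.34, Pparg -0.27 and Ppargc1a -0.54, and the sign turned for Nr1i3 (-0.52), Ppargc1b (-0.32), Hadhb (0.003), Cycs (0.032), C1qb (-0.19), Cd74 (-0.23), Plvap (-0.093), Eng (-0.089), Fabp4 (-0.023), Retn (-0.61) and Teddm1a (-0.20). With the local background capped at its 99th percentile, chosen after seeing the data, 2209 genes passed and 3 of the 10, of which 1 was lower, with Pparg at -0.15 and Esrrg at 0.039.

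With the mean of a gene's probes, Ppara was 0.027 and Esrrg 0.017. On slide 1 alone 966 genes passed (607 higher, 359 lower) and 2 of the 10, of which 0 were lower (Pparg -0.18, Ppargc1a -0.50), and Retn was -0.028. On slide 2 alone 220 passed (168 higher, 52 lower) and 2 of the 10, of which 0 were lower (Nr1i3 0.76, Vdr 0.22, Pparg -0.22, Ppargc1a -0.77), with Esrrg at 0.038 and Fabp4 at -0.06. These fits hold fewer samples. The cause of these and the other shifts was not tested.

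With each array left out, 2076 to 2827 genes passed and 4 of the 10 each time. Ppara ranged from -0.053 to 0.038, Esrrg from -0.088 to 0.063 and Retn from -0.015 to 0.12. The labels leave unsaid whether replicate numbers pair the samples. Same-numbered samples' deviations over all genes correlated at -0.13, -0.03, 0.19 and -0.02, which does not settle it. A fit with the replicate block called 2322 genes, 2130 of them among the 3006, and 5 of the 10, with Nr1i3 at 0.51 (adjusted p = 0.045). The filter on all 8 arrays left Nr1i3 untested. For the other named genes, 1198 alternative values kept direction and side of the threshold, 250 lost the call, 10 gained one and 13 turned sign. Nr1i3 was well above background on 6 of 8 arrays, which limits its value.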

Other observations

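Probes of a gene did not always go the same way. Cyp4a10, a fatty acid hydroxylase and PPARalpha target chosen here after its values were seen, had 3 probes that passed the filter. The brightest gave -0.24 ± 0.18 (SE, adjusted p = 0.393) and another -0.21 (adjusted p = 0.622 over all probes), while the third gave 0.86 (adjusted p = 1.10e-04 over all probes). Which transcripts each probe binds was not examined.

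The Nr1i3 probe that was not tested had signals of -7.67, -8.02, -8.00 and -7.96 with DMSO and -6.05, -5.74, -6.58 and -6.46 with GW4064. Of these 8 signals, 1 was well above background, so no difference is read from them.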
